A study of Homo sapiens with 24 samples.

Results

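Genes known to mark or promote lung metastasis of the human breast cancer line MDA-MB-231 were followed from RNA to ribosome footprints. The members were chosen by name, 1 transcript per gene: the matrix genes MMP1 (ENST00000315274), SPARC (ENST00000231061) and TNC (ENST00000350763), the adhesion receptor VCAM1 (ENST00000294728), the prostaglandin enzyme PTGS2 (ENST00000367468), the secreted signals CXCL1 (ENST00000395761), EREG (ENST00000244869) and ANGPTL4 (ENST00000301455), the transcription regulator ID1 (ENST00000376112) and the actin bundler FSCN1 (ENST00000382361). Of these 10 genes, 7 had a row in the table of LM2 and parental cells and 6 of the 7 (all but PTGS2) had one in the table of HNRNPC knockdown and control guide cells, out of 11396 transcripts listed in either table. MMP1, SPARC and VCAM1 have no row in either table, so their RNA and footprints were not analysed here. LM2 cells are labelled as highly metastatic to the lungs, and parental MDA-MB-231 cells as poorly metastatic. HNRNPC knockdown cells carry a guide named for HNRNPC, an RNA-binding protein of the nucleus, and control guide cells carry a control guide; the labels call both poorly metastatic MDA-MB-231. Each of the 4 groups had 3 ribosome profiling and 3 RNA-seq libraries, 24 in all. All cells were grown in high-glucose DMEM with serum, and cycloheximide, which holds ribosomes on mRNA, was added in the lysis buffer. Nothing in the labels ties a replicate to a culture of its own, so p-values measure the spread between these libraries, which may be technical.

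Metastasis to the lung needs tumour cells to leave blood vessels, survive in lung tissue and rebuild the matrix around them, and the genes of this set act at these steps. Several of them became known from derivatives of this same line that were selected in mice for lung colonisation, a kind of cell to which LM2 belongs, so a higher RNA level in LM2 is not independent of how the genes were found. Ribosome profiling sequences the stretches of mRNA that ribosomes cover, so the footprints of a transcript relative to its RNA give a measure of translation efficiency.

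RNA values were whole multiples of 1 step per library. With 1 step taken as 1 read, the listed transcripts of the LM2 table sum to 26810212 to 52584688 reads per RNA library. Those of the knockdown table sum to 23344230 to 28334050 reads, and reads of transcripts without a row are not included. The read depth of the footprint libraries is unknown. The lowest mean footprint value in either table was 2, so a transcript with fewer footprints has no row, and a gene without a row is not thereby shown to be silent. The tables pair no gene names with their IDs, so HNRNPC itself and markers of the cell type were not analysed here, and the knockdown was not checked at its target. In these bulk cultures, fewer cells that express a gene and less RNA per cell cannot be told apart.

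The promoters of TNC, PTGS2, CXCL1, EREG and ANGPTL4 are shown because these are the members whose RNA was at least 2-fold higher in LM2 or in HNRNPC knockdown cells, a choice made after the values were seen. Each runs from 250 bases before to 50 bases after the start in RefSeq (GRCh38.p14), and capitals mark matches to TATAAA or to the NF-kappaB consensus.
TNC: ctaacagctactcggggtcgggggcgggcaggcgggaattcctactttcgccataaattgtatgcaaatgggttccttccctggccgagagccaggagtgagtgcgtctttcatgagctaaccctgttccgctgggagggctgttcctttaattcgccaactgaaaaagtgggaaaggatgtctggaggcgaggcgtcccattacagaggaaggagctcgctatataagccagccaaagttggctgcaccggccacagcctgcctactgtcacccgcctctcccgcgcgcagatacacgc
PTGS2: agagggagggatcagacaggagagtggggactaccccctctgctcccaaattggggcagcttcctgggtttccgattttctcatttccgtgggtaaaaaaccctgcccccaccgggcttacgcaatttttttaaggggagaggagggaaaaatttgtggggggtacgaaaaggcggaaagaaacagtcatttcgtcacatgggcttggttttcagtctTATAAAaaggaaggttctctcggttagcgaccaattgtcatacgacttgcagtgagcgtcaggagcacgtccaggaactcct
CXCL1: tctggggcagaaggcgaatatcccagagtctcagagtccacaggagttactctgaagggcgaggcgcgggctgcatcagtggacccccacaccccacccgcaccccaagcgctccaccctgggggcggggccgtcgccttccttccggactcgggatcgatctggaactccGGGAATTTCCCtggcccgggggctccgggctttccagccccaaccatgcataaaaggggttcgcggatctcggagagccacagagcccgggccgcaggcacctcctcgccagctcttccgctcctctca
EREG: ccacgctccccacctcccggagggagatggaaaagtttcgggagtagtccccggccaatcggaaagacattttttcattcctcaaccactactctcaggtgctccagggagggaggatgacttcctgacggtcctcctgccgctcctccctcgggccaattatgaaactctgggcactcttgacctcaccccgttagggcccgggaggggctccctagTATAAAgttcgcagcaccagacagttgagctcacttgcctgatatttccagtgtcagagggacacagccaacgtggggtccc
ANGPTL4: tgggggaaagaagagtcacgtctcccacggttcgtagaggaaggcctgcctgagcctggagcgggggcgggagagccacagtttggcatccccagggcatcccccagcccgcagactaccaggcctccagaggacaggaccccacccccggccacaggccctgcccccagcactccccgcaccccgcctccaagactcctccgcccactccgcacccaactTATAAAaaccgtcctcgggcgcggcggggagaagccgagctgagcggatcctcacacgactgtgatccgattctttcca
These windows lie at chr9:115118108-115118407 on the minus strand for TNC, chr1:186680374-186680673 on the minus strand for PTGS2, chr4:73869143-73869442 on the plus strand for CXCL1, chr4:74364895-74365194 on the plus strand for EREG and chr19:8363905-8364204 on the plus strand for ANGPTL4. TATAAA, searched on both strands, was found in 5 of the 8 members with a promoter in the RefSeq table (VCAM1, PTGS2, ID1, EREG and ANGPTL4), against 11.5% of 35116 promoters of the same length. Its first base was 32 bases before the start in PTGS2 and in EREG. Only the exact letters of TATAAA were searched, so near forms, as in the promoters of TNC and CXCL1, were not counted. The NF-kappaB consensus was found in 2 of 8 (VCAM1 and CXCL1), against 11.3% of promoters, and the pair of matches in CXCL1 overlap on opposite strands. TGANTCA, the AP-1 motif, was found in 0 of 8, against 7.71% of promoters. FSCN1 and MMP1 had no entry. These counts describe letters in a window and do not show binding.

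In LM2 cells, RNA of TNC, PTGS2, CXCL1, EREG and FSCN1 was higher than in parental cells, RNA of ID1 was lower, and RNA of ANGPTL4 did not pass the test. With no filter on low values, 5 of the 7 members were higher and 1 was lower in RNA (limma, Benjamini-Hochberg adjusted p under 0.05 across 11252 transcripts). Across all transcripts, 23.0% were called higher and 28.6% lower, and 51.6% in either direction. With a mean of at least 10 required in both assays, 5 members were tested and 3 were higher and 1 lower, where 22.9% and 30.8% of 9342 transcripts were. PTGS2 and CXCL1 are read from the fit with no filter, since their footprints were too few. The parental footprints of PTGS2 and CXCL1 alone would lie under the lowest mean in the table, so their rows rest on the LM2 libraries. TNC and ANGPTL4 likewise passed the filter of 10 only with the LM2 libraries, since their mean footprints were 14.2 and 11.2 in LM2 cells, against 7.97 and 9.23 in parental cells. The counts over listed or tested members are therefore no support for a direction. Fold changes are on the log2(value + 1) scale, which understates changes of low transcripts.

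**Figure D1:**
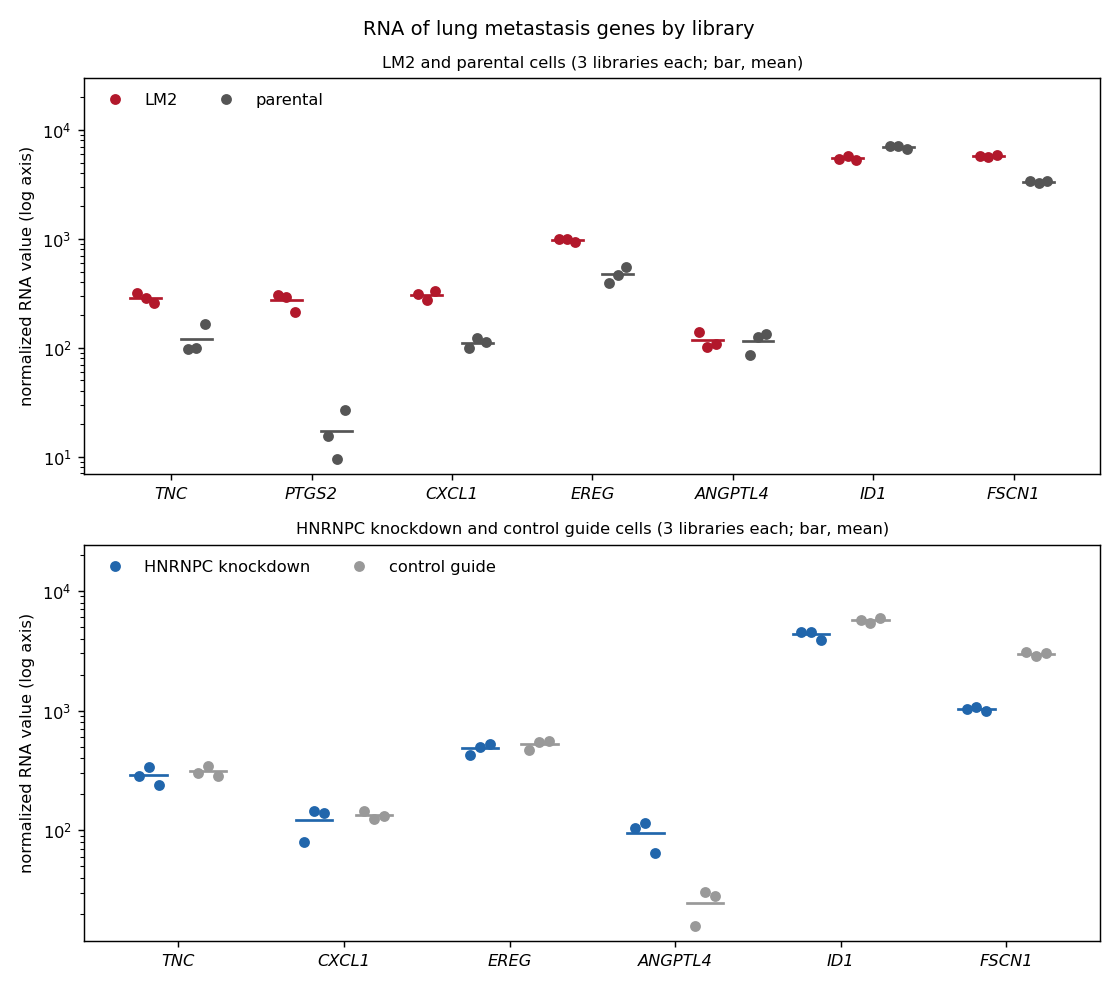
Normalized RNA value of each listed gene (log axis) in each library, with the group mean as a bar; the upper panel has LM2 and parental cells and the lower panel HNRNPC knockdown and control guide cells. PTGS2 separates the LM2 and parental libraries most widely, and FSCN1 and ANGPTL4 separate the knockdown and control guide libraries in opposite directions.

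TNC encodes tenascin-C, a glycoprotein of the extracellular matrix (gene at chr9:115019575-115118157). Its RNA value was 320.5, 286.7 and 258.6 in the 3 LM2 libraries, against 98.2, 100.1 and 165.9 in the parental libraries. Every LM2 library lay above every parental library, and the log2 change was 1.28 ± 0.20 (SE, n = 3 each, limma adjusted p = 1.29e-05). Its footprints were 16.4, 10.1 and 16.0 in LM2 cells, against 8.38, 6.20 and 9.33 in parental cells. The footprint groups did not overlap either, but the change of 0.74 (95% interval 0.04 to 1.44) did not pass the test (limma adjusted p = 0.117). The TNC gene overlaps 2 uncharacterised RefSeq loci, so reads shared with them are possible.

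PTGS2 encodes cyclooxygenase-2, which makes prostaglandin precursors (gene at chr1:186671791-186680423). Its RNA value was 306, 293 and 215 in LM2 cells, against 15.3, 9.59 and 26.8 in parental cells. These values stand for 294, 274 and 347 reads in LM2 libraries and for 12, 9 and 28 reads in parental libraries. The log2 change was 3.99 ± 0.32 (SE), which is 15.9-fold, and limma's adjusted p was 4.03e-10. It exceeded the change of 99.9% of transcripts in the table. That rank only describes the listed rows, since PTGS2 has its row through the LM2 libraries. Footprints were 11.5, 12.1 and 8.07 in LM2 cells, while parental replicate 2 had 1.06 and the other parental libraries were listed at 0. The footprint change of 3.17 on the log2 scale passed the test (limma adjusted p = 6.62e-05), but its size depends on the pseudocount because of those zeros (1.54 with a pseudocount of 5). PTGS2 has a row only through its LM2 footprints, so this footprint p-value is no support for a direction.

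Among the secreted signals, the chemokine CXCL1, which attracts neutrophils, had RNA values of 309, 272 and 333 in LM2 cells, against 99.5, 121 and 112 in parental cells. The groups lay far apart, with a log2 change of 1.45 ± 0.17 (SE, limma adjusted p = 2.48e-07). CXCL1 footprints were 7.62, 9.73 and 5.84 in LM2 cells, while parental replicate 1 had 2.58 and the other parental libraries were listed at 0. Its footprint change of 2.49 passed the test (limma adjusted p = 0.00233) and was 1.14 with a pseudocount of 5 and 3.10 without parental replicate 1. CXCL1 also has a row only through its LM2 footprints, so this footprint p-value is no support for a direction either. Near-identical chemokine genes could share its reads. EREG encodes epiregulin, a ligand of the EGF receptor family. Its RNA value was 988, 995 and 939 in LM2 cells, against 397, 468 and 546 in parental cells, a log2 change of 1.06 ± 0.11 (SE, limma adjusted p = 4.02e-08). The EREG gene overlaps 1 uncharacterised RefSeq locus, with which reads could be shared. Its footprints were 23.3, 17.5 and 27.4 in LM2 cells, against 10.97, 13.5 and 11.3 in parental cells. All LM2 libraries were above all parental libraries, and the change of 0.86 ± 0.28 passed the test (limma adjusted p = 0.0242). That call was lost without LM2 replicate 1 (limma adjusted p = 0.0726), without LM2 replicate 3 (0.170) and without parental replicate 1 (0.0548).

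ANGPTL4 encodes a secreted inhibitor of lipoprotein lipase. Its RNA value was 140, 101 and 108 in LM2 cells, against 85.4, 126 and 132 in parental cells. The groups overlapped, and the log2 change was 0.03 (95% interval -0.43 to 0.50, limma adjusted p = 0.909). Footprints overlapped as well, at 16.5, 8.54 and 8.74 in LM2 cells against 11.05, 8.50 and 8.16 in parental cells. The footprint change was 0.21 (95% interval -0.51 to 0.94, limma adjusted p = 0.717).

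ID1 encodes a helix-loop-helix protein that keeps bHLH transcription factors from binding DNA, and it moved in the opposite direction. Its RNA value was 5409, 5716 and 5314 in LM2 cells, against 7087, 7100 and 6673 in parental cells. Each LM2 library was below each parental library, and RNA fell by 0.34 on the log2 scale (SE 0.04, limma adjusted p = 5.28e-07). Its footprints were 291, 267 and 253 in LM2 cells, against 390, 331 and 362 in parental cells. They fell by 0.42 on the log2 scale (limma adjusted p = 0.000475), a call that was lost without a variance trend (limma adjusted p = 0.0533); the fall was 0.26 after quantile normalization.

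FSCN1 encodes fascin, which bundles actin filaments in the protrusions of moving cells (gene at chr7:5592816-5606655). Its RNA value was 5754, 5690 and 5882 in LM2 cells, against 3399, 3231 and 3387 in parental cells. The groups were tight and far apart, with a log2 change of 0.79 ± 0.04 (SE, limma adjusted p = 2.01e-12). Footprints were 375, 378 and 308 in LM2 cells, against 280, 259 and 274 in parental cells. They rose by 0.38 ± 0.09 on the log2 scale (SE, limma adjusted p = 0.00158), a call that was also lost without a variance trend (limma adjusted p = 0.0760). A processed FSCN1 pseudogene exists, and how multimapping reads were counted is not given in the sources used here.

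**Figure D2:**
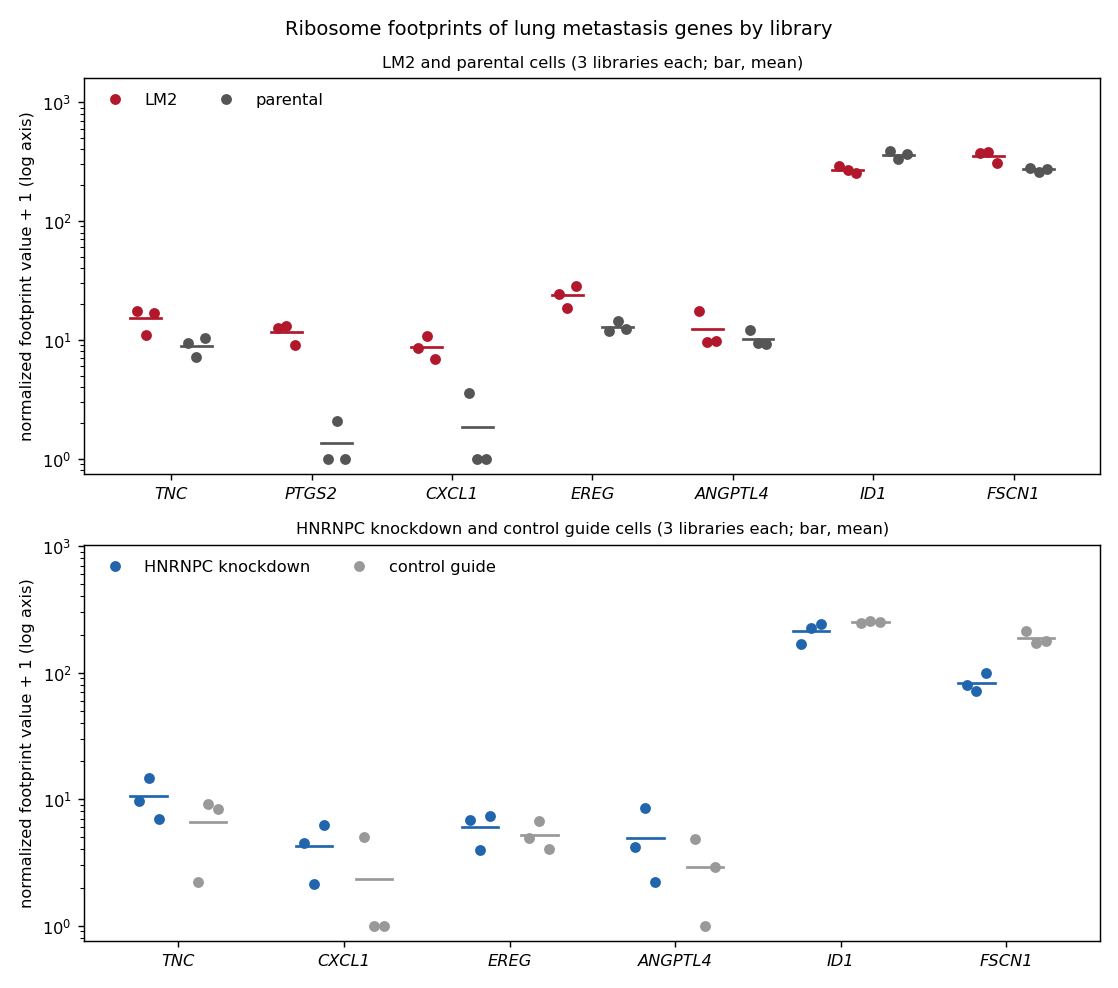
Normalized footprint value plus 1 of each listed gene (log axis) in each library, with the group mean as a bar, for LM2 and parental cells (upper panel) and for HNRNPC knockdown and control guide cells (lower panel). A point at 1 is a library listed at 0, as for PTGS2 and CXCL1 in parental cells, while FSCN1 is at 70.0 to 98.8 in knockdown and 170 to 212 in control guide cells.

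For footprints, 4 of the 7 members were higher and 1 lower in LM2 cells with no filter, where 8.56% of all transcripts were called higher and 12.4% lower. With the filter the counts were 2 higher and 1 lower of 5, against 9.25% and 14.5%. Groups of 3 libraries did not overlap, LM2 above parental, for 5 of the 7 members in RNA (25.9% of all transcripts) and for the same 5 members in footprints (16.4%). ID1 alone was below parental without overlap in both assays (31.2% of all transcripts in RNA and 18.5% in footprints). Since the rows of PTGS2 and CXCL1 rest on the LM2 libraries, these counts are no support for a direction either. The plot of changes with intervals places the RNA, footprint and efficiency changes side by side.

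**Figure D3:**
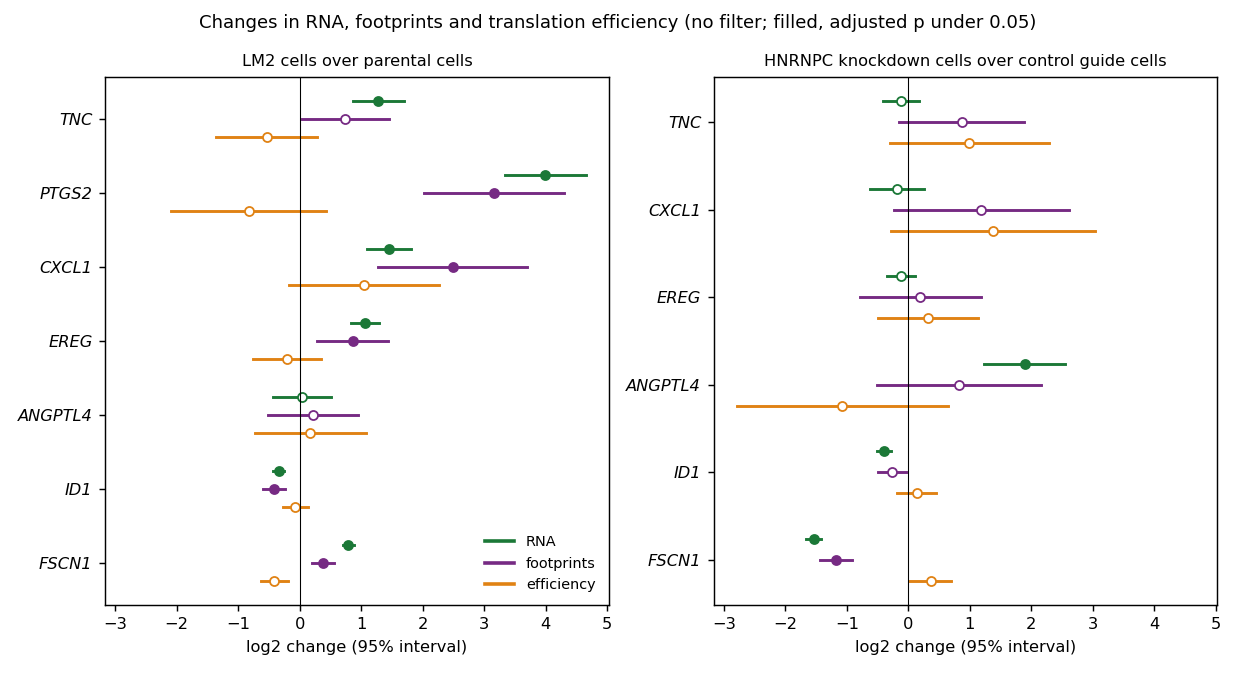
Log2 change (x axis) of RNA, footprints and translation efficiency with 95% intervals for each listed gene. Changes are for LM2 over parental cells (left) and HNRNPC knockdown over control guide cells (right). All fits had no filter, and filled points passed the test. PTGS2 has the largest RNA change in LM2 cells (3.99) and ANGPTL4 (1.89) and FSCN1 (-1.54) the largest in knockdown cells.

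Translation efficiency, the footprint change minus the RNA change, was lower in LM2 cells for 1 of the 5 members tested with the filter, FSCN1, where 1.16% of transcripts were called lower and 0.471% higher. With no filter 0 of 7 members were called by limma, where 1.14% of transcripts were, and 1 of the 7 members had an unadjusted p under 0.05. FSCN1 had 65.2, 66.5 and 52.4 footprint units per 1000 RNA units in LM2 cells, against 82.2, 80.2 and 80.8 in parental cells. The log2 change was -0.41 (95% interval -0.62 to -0.20, limma adjusted p = 0.0454). The call was lost with no filter, where the change was again -0.41 (limma adjusted p = 0.0576). Leaving out a replicate removed its RNA and footprint libraries together. The call was lost without any of 5 replicates, where the change was -0.47 to -0.30. The limma adjusted p was 0.116 with LM2 replicate 2 left out and 0.253 with LM2 replicate 3 left out. Leaving out parental replicate 1, 2 or 3 gave a limma adjusted p of 0.144, 0.111 or 0.137. In the other members the interval of the efficiency change was -1.32 to 0.24 for TNC, -2.08 to 0.43 for PTGS2, -0.74 to 0.34 for EREG, -0.67 to 1.02 for ANGPTL4 and -0.28 to 0.13 for ID1. For CXCL1 it was -0.17 to 2.26. Footprint values are low in PTGS2 and CXCL1, where another pseudocount changed the sign of CXCL1 (-0.28) and took PTGS2 to -2.16 (pseudocount of 5, limma adjusted p = 0.00182 for PTGS2). Leaving out parental replicate 2 took PTGS2 to -0.14, and leaving out parental replicate 1 took CXCL1 to 1.73.

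**Figure D4:**
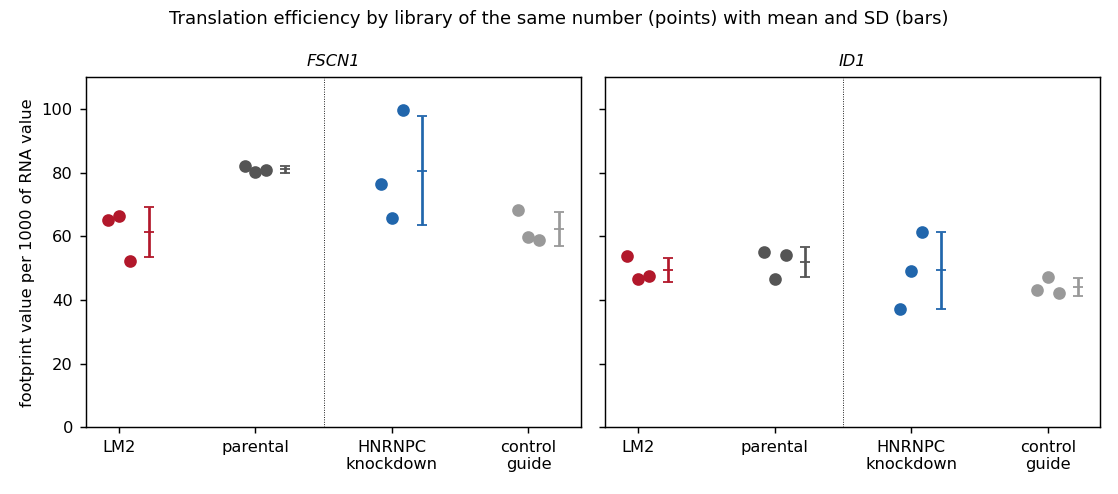
Footprint units per 1000 RNA units of FSCN1 (left) and ID1 (right) by library of the same number, with mean and SD. FSCN1 lies at 52.4 to 66.5 in LM2 and 80.2 to 82.2 in parental cells, and at 65.9 to 99.5 in HNRNPC knockdown and 58.7 to 68.3 in control guide cells.

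In HNRNPC knockdown cells, RNA of ANGPTL4 was higher than in control guide cells, RNA of FSCN1 and ID1 was lower, and RNA of TNC, CXCL1 and EREG did not pass the test. With no filter, 1 of 6 members was higher and 2 were lower in RNA (limma adjusted p under 0.05 across 10767 transcripts), while 28.9% of all transcripts were called higher and 41.2% lower. A call in either direction applied to 70.1% of transcripts, so 3 of 6 members called is no more than the table at large. The control guide footprints of ANGPTL4 and CXCL1 alone would lie under the lowest mean in that table, so these rows rest on the knockdown libraries and the counts are no support for a direction. With the filter, 2 members were tested and both were lower, where 45.4% of 8283 transcripts were. The median log2 change in RNA over those transcripts was -0.10, so changes of that size are shared with the whole table.

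FSCN1 had an RNA value of 1027, 1063 and 992 in HNRNPC knockdown cells, against 3099, 2847 and 3006 in control guide cells. Every knockdown library was below every control guide library, and RNA fell by 1.54 on the log2 scale (SE 0.06, limma adjusted p = 2.44e-17), or 2.90-fold. With the median change of all transcripts set to 0, it fell by 1.43. Its footprints were 78.6, 70.0 and 98.8 in knockdown cells, against 212, 170 and 177 in control guide cells. They fell by 1.17 on the log2 scale (limma adjusted p = 6.82e-09), and 1 of the 2 members tested with the filter passed for footprints, where 20.7% of transcripts were called lower. With no filter it was 1 of 6, also lower, where 16.0% were called lower and 13.4% higher. Per 1000 RNA units FSCN1 had 76.6, 65.9 and 99.5 footprint units in knockdown cells, against 68.3, 59.9 and 58.7 in control guide cells. Its efficiency change of 0.36 (95% interval 0.03 to 0.70) did not pass (limma adjusted p = 0.192). For efficiency, limma called 0 of the 6 members with no filter, where 3.78% of transcripts were called, and 1 member had an unadjusted p under 0.05. With a pseudocount of 5 ANGPTL4 was called lower (-1.38, limma adjusted p = 0.0487).

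ID1 RNA values were 4524, 4563 and 3906 in knockdown cells, against 5732, 5406 and 5985 in control guide cells. The groups did not overlap, and RNA fell by 0.40 on the log2 scale (SE 0.05, limma adjusted p = 3.03e-07), by 0.30 with the median change set to 0 and by 0.21 after quantile normalization. Footprints were 169, 225 and 240 in knockdown cells, against 247, 256 and 252 in control guide cells. They did not overlap, yet the change of -0.27 (95% interval -0.50 to -0.04) did not pass (limma adjusted p = 0.0585). Without knockdown replicate 3 it passed (limma adjusted p = 0.0121).

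ANGPTL4 RNA values were 104, 115 and 64.3 in knockdown cells, against 16.0, 30.2 and 28.2 in control guide cells. They stand for 112, 129 and 69 reads in knockdown libraries and for 17, 31 and 25 reads in control guide libraries. All knockdown libraries were above all control guide libraries, with a log2 change of 1.89 ± 0.32 (SE, limma adjusted p = 8.37e-06), which is 3.71-fold. Footprints were 3.15, 7.53 and 1.20 in knockdown cells, while control guide libraries had 3.87, a listed 0 and 1.91. These overlapped, and the footprint change of 0.82 (95% interval -0.51 to 2.15) did not pass (limma adjusted p = 0.366). It was 0.18 without control guide replicate 2, the library listed at 0. The efficiency change was -1.07 (95% interval -2.79 to 0.65, limma adjusted p = 0.517), and was -0.29 without control guide replicate 1 and -1.87 without control guide replicate 2.

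RNA of the other listed members overlapped between knockdown and control guide cells. TNC had 285, 337 and 240 in knockdown cells, against 303, 344 and 286 in control guide cells, a log2 change of -0.12 (95% interval -0.42 to 0.17, limma adjusted p = 0.444). CXCL1 had 80.4, 145 and 139 in knockdown cells, against 145, 125 and 132 in control guide cells, a log2 change of -0.18 (95% interval -0.63 to 0.26). EREG had 427, 491 and 529 in knockdown cells, against 473, 549 and 554 in control guide cells, a log2 change of -0.12 (95% interval -0.35 to 0.10). These intervals include changes of up to 0.63 in size. Footprints of the 3 genes were at most 13.8 in any knockdown or control guide library and did not pass either. CXCL1 footprints were 3.47, 1.13 and 5.22 in knockdown cells, while control guide replicate 1 had 3.999 and the other control guide libraries were listed at 0. Without that replicate the CXCL1 footprint change passed (1.96, limma adjusted p = 0.0414). The CXCL1 row rests on the knockdown libraries, so this pass is no support for a direction. TNC footprints were 8.74, 13.8 and 6.01 in knockdown cells, against 1.21, 8.12 and 7.29 in control guide cells. The TNC footprint change was 0.87 (limma adjusted p = 0.196) and was 0.21 without control guide replicate 1. EREG footprints were 5.81, 2.97 and 6.42 in knockdown cells, against 3.94, 5.68 and 3.07 in control guide cells. In RNA, groups did not overlap for 1 member above (30.0% of all transcripts) and 2 members below control guide cells (42.2%). In footprints, 0 members lay above without overlap (20.1% of transcripts) and 2 lay below (21.7%).

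**Figure D5:**
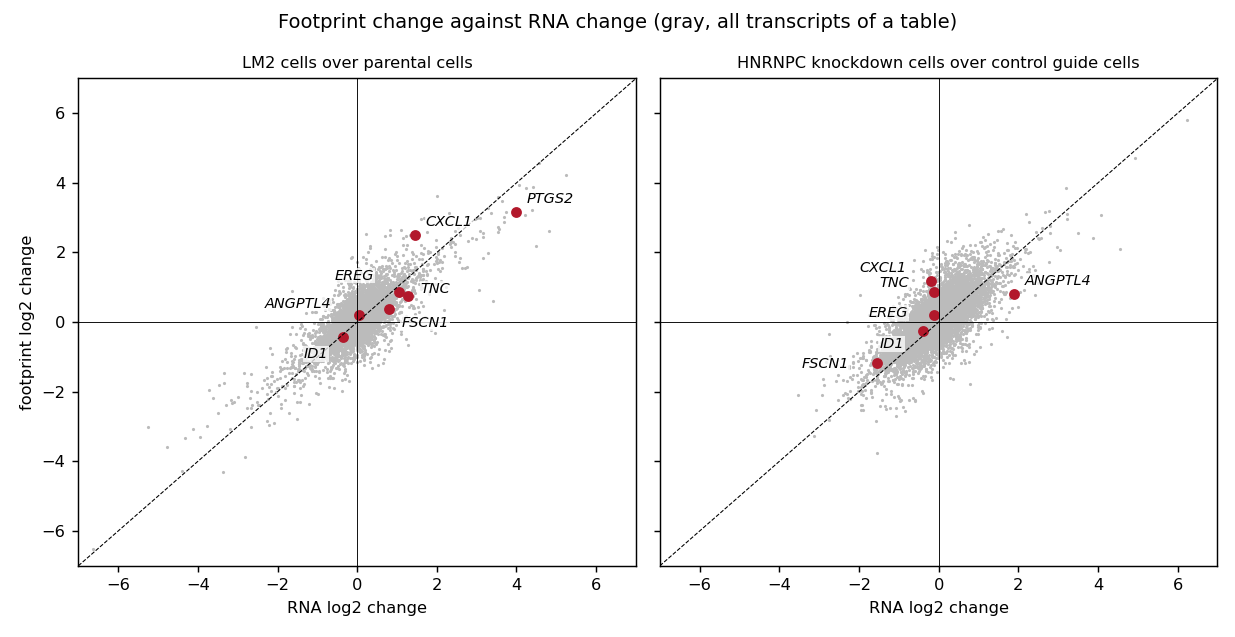
Log2 change in footprints (y axis) against log2 change in RNA (x axis) for all transcripts of a table (gray) and the listed genes (red), for LM2 over parental cells (left) and HNRNPC knockdown over control guide cells (right); the dashed line marks equal changes. FSCN1 lies in the upper right quadrant in LM2 cells (0.79 in RNA, 0.38 in footprints) and in the lower left in knockdown cells (-1.54 and -1.17).

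Only FSCN1 and ID1 were tested with the filter in both tables, and FSCN1 had the larger RNA change. The transcripts most like FSCN1 over all 24 libraries were sought among 8171 transcripts. Likeness was the correlation of log2(value + 1) after the mean of each transcript in each assay and table was subtracted. ENST00000299421 (Pearson r = 0.971) and ENST00000354546 (r = 0.968) were nearest. These are descriptions over libraries that share their depth and group structure, taken across both tables. The subtraction leaves the level of a transcript out of the correlation. Mean values are given on the scale of each table, and a common scale is not given. ENST00000354546 had a mean RNA value of 10806 in LM2 and 7289 in parental cells, and 2067 in knockdown and 6436 in control guide cells. ENST00000299421 had a mean RNA value of 5830 in LM2 and 4783 in parental cells, and 1742 in knockdown and 3396 in control guide cells.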

How the data were processed

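Ribosome footprints and RNA were measured in 24 libraries. The authors deposited 2 tables of normalized signal per transcript, one for LM2 and parental cells and one for HNRNPC knockdown and control guide cells; tests were made only within a table, since the sources used here do not say whether the tables share a scale. The submitters' processing notes name Bowtie2 2.3.5, SAMtools, UMI-tools and cutadapt 2.3 and the hg38 build; how signal was counted and scaled is not given in the sources used here. The parental columns are named only for the line. Since the values are not counts, log2(value + 1) was tested with limma 3.58.1 (R 4.3.3, variance trend, Benjamini-Hochberg adjustment over all transcripts), with a mean of at least 10 in each assay, or with no filter for members below it. Footprints and RNA were fitted separately, and efficiency as their difference in 1 model. The members and lists were chosen with earlier results of these data known, and member IDs were paired with names by the list that defines the set, since 0 of 11396 IDs matched the name tables; other pathway lists were not analysed here. The genes named are the members, and the pair of transcripts most like FSCN1. Only FSCN1 and ID1 were tested with the filter in both tables, and FSCN1 had the larger RNA change. Alternatives were other pseudocounts, filters and scalings, a replicate block, no variance trend, array weights and leaving out each replicate of a group. For efficiency, leaving out a replicate removed its RNA and footprint libraries together. Further alternatives were footprints paired with RNA of the same number for efficiency, and for RNA a spread taken from all 12 libraries.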

Additional observations from a re-analysis of the deposited data

How the results depend on the processing

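Of 605 values for 39 results under the alternatives, 573 kept their direction and side of the threshold, 14 lost and 6 gained a call, and 12 changed sign, each of a value not called. In LM2 cells, members called for RNA were 2 in place of 4 with a mean of at least 50. Only ID1 and FSCN1 were tested under that filter, and both stayed called. Members called for footprints were 5 in place of 3 with no filter, where PTGS2 and CXCL1 entered the test. They were 1 with no variance trend, and 2 to 3 when a library was left out. The single efficiency call became 0 with no filter, quantile normalization, a replicate block or no variance trend. It was 0 to 1 when the RNA and footprint libraries of a replicate were left out. In knockdown cells, members called for footprints were 2 in place of 1 with a mean of at least 50 or array weights, and 1 to 2 when a library was left out; the cause was not tested. Sign changes in LM2 cells were ANGPTL4 RNA (-0.000617 with array weights, -0.16 to 0.15 without a library) and its footprints (-0.0748 to 0.36 without a library). Its efficiency also changed sign (-0.0507 with quantile normalization, -0.0158 to 0.49 without a replicate in both assays). Other sign changes were ID1 efficiency (0.0109 with quantile normalization) and CXCL1 efficiency (-0.28 with a pseudocount of 5). In knockdown cells they were EREG footprints (-0.11) and efficiency (-0.0182) with quantile normalization, and CXCL1 RNA (-0.33 to 0.0873) without a library. ID1 efficiency there also changed sign (-0.0407 to 0.32 without a replicate in both assays). Replicate numbers did not pair libraries across groups. Correlations here are of deviations, the log value of each transcript minus its mean in the group and assay. They leave out the level of a transcript, so they do not describe how alike the libraries are in level. In these deviations, same-numbered libraries of 2 groups correlated at -0.20 to 0.03. In each assay and table, 0 of 6 libraries correlated best with their own number in the other group. Footprint and RNA libraries of the same group and number correlated at -0.0061 to 0.13 in these deviations. Pairing them in the efficiency fit kept the FSCN1 call in LM2 cells (limma adjusted p = 0.0213). A test on counts was not run: RNA values are whole multiples of a step, but low values are cut off in the tables, and footprint depth is unknown. Low footprint values limit what can be said of PTGS2, CXCL1, ANGPTL4, TNC and EREG.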

Other observations

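Whether the tables share a scale is not given, so levels across them were set only by rank within a library. Ranks are among the rows listed in a table, 11252 for LM2 and parental cells and 10767 for knockdown and control guide cells. The cause of differences between parental and control guide libraries was not tested. ANGPTL4 RNA exceeded that of 4.91 to 8.40% of listed transcripts in parental libraries and of 0.223 to 0.799% in control guide libraries, although both are labelled poorly metastatic MDA-MB-231. Its control guide values stand for 17, 31 and 25 reads, and its row there rests on the knockdown libraries. TNC RNA exceeded 5.93 to 10.7% of listed transcripts in parental libraries and 18.2 to 21.9% in control guide libraries. The other members listed in both tables lay closer: CXCL1 RNA exceeded 6.05 to 7.64% in parental and 6.89 to 8.50% in control guide libraries, and EREG RNA 23.9 to 30.4% in parental and 28.8 to 32.8% in control guide libraries. FSCN1 RNA exceeded 77.5 to 78.5% in parental and 79.5 to 81.1% in control guide libraries. ID1 RNA exceeded 90.3 to 90.9% in parental and 90.8 to 92.0% in control guide libraries. In LM2 libraries, TNC RNA exceeded 16.6 to 20.0%, which overlaps its control guide range. CXCL1 RNA exceeded 17.8 to 20.7% there, EREG RNA 44.1 to 45.6% and FSCN1 RNA 88.5 to 89.3%, above their control guide ranges. ID1 RNA exceeded 87.9 to 88.6% there, below its control guide range. In HNRNPC knockdown libraries, ANGPTL4 RNA exceeded 2.47 to 6.03%, which overlaps its parental range.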
